A study of Mus musculus with 8 samples.

Results

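Macrophages bind antibody-coated particles through Fc receptors, and the 5 genes described here encode the receptors for IgG, Fcgr1, Fcgr2b, Fcgr3 and Fcgr4, and Fcer1g, the signalling chain that the activating ones share. Their accessible chromatin was described through regions made by merging the ATAC-seq peaks of 8 libraries wherever peaks overlapped by at least 1 base. A region belonged to one of these genes when that gene had the nearest protein-coding gene body (GRCm38.p6) within 100 kb. This rule gave 39 of the 87260 regions in all: 14 at Fcgr3, 9 at Fcgr2b, 8 at Fcgr4, 6 at Fcgr1 and 2 at Fcer1g. The farthest lay 34.1 kb from its gene, so the 100 kb limit left none out. In ATAC-seq a transposase cuts open DNA, and a peak is a stretch where cuts pile up.

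The 4 groups were Nfat5 KO macrophages with LPS, WT macrophages with LPS, untreated Nfat5 KO macrophages and untreated WT macrophages, with 2 libraries each. LPS, from the outer membrane of E. coli, was given at 0.3 ng/ml for 2 h. The cells of every group had been grown from bone marrow for 7 days in medium with 25% supernatant of L929 fibroblasts, which secrete the growth factor M-CSF. NFAT5 is a transcription factor known for the response to high salt and for a part in macrophage activation. The sources used here do not state how the Nfat5 deficiency was made or the age, sex and strain of the mice. Nothing states that the 2 libraries of a group came from separate cultures or animals, so their spread may be technical.

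The lists held 54027 to 57691 peaks with LPS and 56346 to 60117 without, covering 26.2 to 28.0 Mb against 29.6 to 31.2 Mb, and depth is unknown. Peaks carry no height, so the measurements here are whether a library called a region and how many bases of it were called. A region that was not called is written as 0 called bases, and may still have been open. In bulk chromatin, a region open in fewer cells and one less open in each cell cannot be told apart. All 9 macrophage markers, Adgre1, Csf1r, Spi1 and Mertk among them, had a region over the gene called in all 8 libraries. This was so for 0 of 5 B cell, 0 of 4 NK cell, 0 of 6 mast cell or basophil, 1 of 7 neutrophil (S100a8), 2 of 6 T cell (Cd3d and Lck) and 3 of 4 dendritic cell markers (Flt3, Zbtb46 and Xcr1). Regions over Cd79a, Cd79b and Pax5 of B cells, Ncr1 of NK cells and Cpa3 and Ms4a2 of mast cells were called in no library. Other markers of these cell types had regions called in some libraries. Called bases over the B cell markers, KO then WT, numbered 199 to 243 and 0 to 398 with LPS. Untreated, they numbered 556 to 772 and 261 to 620. NK cell markers had 0 and 0 to 317 with LPS, and 0 to 383 and 225 to 632 untreated. Mast cell or basophil markers had 0 to 634 and 246 to 944 with LPS, and 206 to 521 and 385 to 1005 untreated. Summed over the dendritic cell markers, called bases numbered 5939 to 6470 in KO and 5913 to 7084 in WT with LPS, and 6413 to 7187 in KO and 7550 to 8668 in WT untreated. For the T cell markers they numbered 810 to 1348 in KO and 1528 to 1581 in WT with LPS, and 1484 to 1999 in KO and 1986 to 2118 in WT untreated. The part of such cells in the results below was not tested. As a check on LPS, the regions of Clec4e, Nfkbiz and Il12b included 1, 2 and 2 that both LPS libraries and no untreated library called in each genotype.

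Fc receptors for IgG work as a balance. FcγRI (Fcgr1), of high affinity, and FcγRIII (Fcgr3) and FcγRIV (Fcgr4), of lower affinity, pair with the FcRγ chain (Fcer1g), whose tyrosine motif (ITAM) recruits the kinase SYK after SRC-family kinases have phosphorylated it. FcγRIIB (Fcgr2b) is the inhibitory receptor and carries its own inhibitory motif (ITIM), which recruits the phosphatase SHIP1. The genes Fcgr2b, Fcgr4 and Fcgr3 lie side by side on mouse chromosome 1, Fcer1g lies farther along the same chromosome, and Fcgr1 lies on chromosome 3. On GRCm38.p6 the gene bodies are chr3:96282909-96293969 for Fcgr1, chr1:171051169-171065915 for Fcgr3, chr1:171018926-171029761 for Fcgr4, chr1:170960558-170976071 for Fcgr2b and chr1:171229572-171234349 for Fcer1g. The 3 neighbours arose by duplication, so reads from similar stretches can be hard to place.

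The start sites are shown because each of the 5 genes had a region over its own. RefSeq gives 2 promoter windows for Fcgr3, and only the first listed was used for its start site, sequence and motifs. The Fcgr3 gene body extends upstream of that start site, to position 171065915, so regions named as upstream of it can lie inside the gene. The sequences below run from 130 bases before the RefSeq start site to 50 after it (GRCm38.p6, strand of the gene), and capitals mark motif matches found by letters on either strand.
Fcgr1 (chr3:96293920-96294099, minus strand): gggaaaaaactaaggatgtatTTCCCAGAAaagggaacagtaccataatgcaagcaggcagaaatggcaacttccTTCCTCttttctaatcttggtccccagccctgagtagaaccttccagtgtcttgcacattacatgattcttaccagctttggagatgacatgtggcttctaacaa
Fcgr3 (chr1:171059354-171059533, minus strand): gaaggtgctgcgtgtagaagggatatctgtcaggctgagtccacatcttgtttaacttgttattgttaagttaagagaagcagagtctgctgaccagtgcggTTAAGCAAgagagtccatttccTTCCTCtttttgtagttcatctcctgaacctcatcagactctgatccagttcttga
Fcgr4 (chr1:171018796-171018975, plus strand): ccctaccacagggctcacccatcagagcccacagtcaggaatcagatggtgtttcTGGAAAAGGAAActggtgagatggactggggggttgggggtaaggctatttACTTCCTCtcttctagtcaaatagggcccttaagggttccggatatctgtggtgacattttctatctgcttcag
Fcgr2b (chr1:170976022-170976201, minus strand): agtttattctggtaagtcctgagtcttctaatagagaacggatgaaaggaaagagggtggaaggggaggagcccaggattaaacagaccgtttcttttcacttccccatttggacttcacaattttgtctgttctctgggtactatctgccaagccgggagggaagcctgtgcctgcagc
Fcer1g (chr1:171234300-171234479, minus strand): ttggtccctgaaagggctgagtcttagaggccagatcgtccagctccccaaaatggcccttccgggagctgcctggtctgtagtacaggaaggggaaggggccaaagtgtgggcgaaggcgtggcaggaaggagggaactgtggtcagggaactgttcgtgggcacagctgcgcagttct

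The core letters GAGGAA of the myeloid factor PU.1 stood, on the opposite strand, at Fcgr1 (55 to 50 bases before the start site), at Fcgr4 (22 to 17 before) and at Fcgr3 (6 to 1 before). They occur in 28.3% of the 32851 RefSeq promoter windows of 300 bases. The longer letters GAGGAAGT, which hold that core, occur in 3.2% of windows and among these genes at Fcgr4. Fcgr1 had the STAT letters TTCNNNGAA (8.3% of windows), Fcgr3 the C/EBP letters TTGCNNAA (10.8%), and Fcgr4 the interferon response letters, GAAA repeated after any 2 bases (3.44%), overlapping the NFAT letters TGGAAA (21.4%). The AP-1 letters TGANTCA (7.81%) were in none of the 5 windows. The NF-kB letters, GGG and CC with any 5 bases between them, in 50.8% of windows, were in 4 of the 5 and are not capitalised. A match is a description of letters and shows no binding.

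Most of the Fc receptor regions were present throughout. Of the 39 regions, 22 (56.4%) were called in all 8 libraries, against 41.3% of all regions, 13 in 2 to 7 libraries and 4 in 1 library, against 20.1% of all regions. Single libraries called 28 and 26 of the 39 in KO with LPS, 30 and 31 in WT with LPS, with 31 and 32 in KO and 32 and 33 in WT untreated. The KO LPS lists were also the shortest as a whole, with 54911 and 54027 peaks, against 57691 and 55506 in WT with LPS. Untreated, the lists held 56346 and 59811 peaks in KO and 60117 and 59218 in WT. Of the regions, 14 overlapped their gene and 25 lay outside it.

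**Figure D1:**
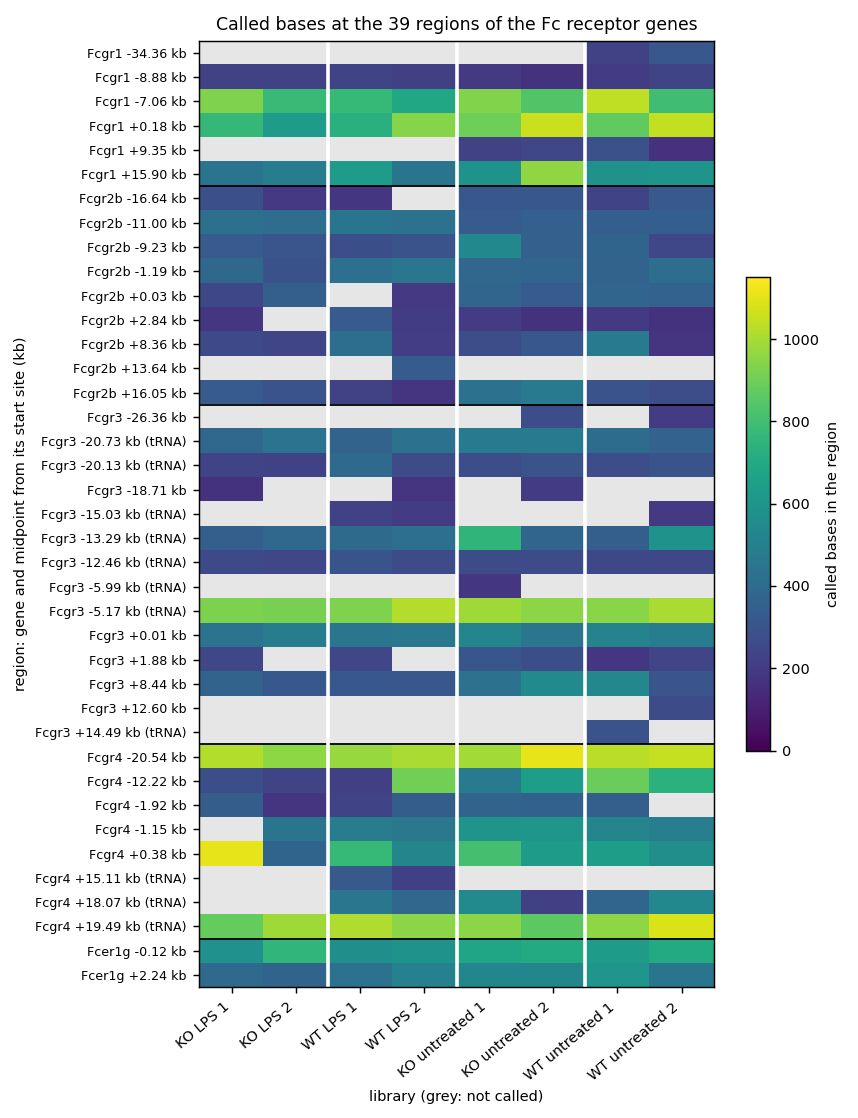
Called bases of the 39 regions (rows, by gene and midpoint distance from the gene's start site in kb) in each of the 8 libraries (columns). Grey cells were not called, and "(tRNA)" marks the 11 regions that overlap a tRNA gene. Rows filled across, such as the start sites of Fcgr1, Fcgr3 and Fcer1g, were called in all 8 libraries.

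Fcgr1, the high-affinity receptor, had 6 regions, 4 of them called in all 8 libraries. The region over its start site (chr3:96293247-96294325) held 768 and 633 called bases in KO with LPS, 728 and 942 in WT with LPS, 894 and 1059 in KO and 870 and 1046 in WT untreated. Both KO LPS libraries lay below all 4 untreated libraries, while the WT LPS range overlapped the untreated one. On the median-centred scale the log2 ratio of called bases, LPS over untreated, was -0.35 ± 0.17 (SE) in KO (limma, adjusted p = 0.511) and -0.09 ± 0.17 in WT (adjusted p = 0.854), and neither passed the test. Counted from the start site, the peaks began between -356 and -290 bases in the 8 libraries and differed more at their inner end, which lay 342 to 722 bases into the gene.

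A region inside Fcgr1, 9.35 kb downstream of the start site (chr3:96284475-96284767), was called in no LPS library and in all 4 untreated libraries. It held 0 called bases in each LPS library of either genotype, against 226 and 245 in KO and 284 and 165 in WT untreated. It is the 1 Fc receptor region among the 810 that were lost with LPS in both genotypes, where lost means called in both untreated libraries and in neither LPS library of a genotype. These were narrow peaks, with the smallest at 165 bases where the narrowest peak of any list was 156. When each list was cut to its widest 54027 peaks it no longer counted as lost in WT, and with the widest 27013 in neither genotype.

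Outside Fcgr1, a region 7.06 kb upstream (chr3:96300463-96301592) was wide in every library, with 927 and 774 called bases in KO and 769 and 691 in WT with LPS, and 933 and 838 in KO and 1039 and 796 in WT untreated. Both WT LPS libraries were the lowest of the 8, and the other 3 groups overlapped. Past the far end of the gene, 15.9 kb downstream (chr3:96277554-96278579), a region held 443 and 488 called bases in KO and 631 and 447 in WT with LPS, and 587 and 957 in KO and 585 and 597 in WT untreated. Its log2 ratio of LPS over untreated was -0.56 ± 0.27 in KO and -0.04 ± 0.27 in WT (limma, adjusted p = 0.506 and 0.965). A narrow region 8.88 kb upstream (chr3:96302728-96302973) held 222 and 223 in KO and 238 and 218 in WT with LPS, against 196 and 169 in KO and 198 and 237 in WT untreated. Its log2 ratio of LPS over untreated was 0.42 ± 0.16 in KO (limma, adjusted p = 0.417) and 0.19 ± 0.16 in WT (adjusted p = 0.638). The region 34.4 kb upstream (chr3:96328100-96328562), over the small nuclear RNA gene Gm24830, was called in both untreated WT libraries, with 229 and 310 bases, and in no other library. It therefore counted as lost with LPS in WT and as WT-only among untreated libraries. Summed over its 6 regions, Fcgr1 had 2.36 and 2.12 kb called in KO and 2.37 and 2.3 kb in WT with LPS, against 2.84 and 3.27 kb in KO and 3.21 and 3.15 kb in WT untreated. All 4 LPS sums lay below all 4 untreated sums, as they did for 14.0% of the 15800 genes with a region.

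Fcgr4, an activating receptor of mouse macrophages and neutrophils, had 8 regions, 4 called in all 8 libraries. The region over its start site (chr1:171018734-171019874) was in most libraries made of 2 separate peaks. One covered the start site, ending 22 to 233 bases into the gene, and the other lay between 497 and 948 bases into it. In KO LPS library 1 a single peak of 1108 bases spanned both, and in KO LPS library 2 only the inner peak of 369 bases was called. The called bases of the whole region, 1108 and 369 in KO with LPS, 772 and 528 in WT with LPS, 811 and 634 in KO and 645 and 569 in WT untreated, therefore differed most within the KO LPS group. The log2 ratio of KO over WT with LPS was 0.05 ± 0.48 (limma, adjusted p = 0.987).

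The steadiest Fcgr4 region lay 20.5 kb upstream (chr1:170997827-170998938), between Fcgr4 and Fcgr2b. It held 1018 and 956 called bases in KO and 974 and 1005 in WT with LPS, and 991 and 1107 in KO and 1029 and 1049 in WT untreated. The region 12.2 kb upstream (chr1:171006249-171007160) held 276 and 238 in KO with LPS, 218 and 906 in WT with LPS, 477 and 641 in KO and 885 and 736 in WT untreated, so that 1 WT LPS library stood with the untreated WT ones. Its log2 ratio of LPS over untreated was -0.98 ± 0.60 in KO and -0.74 ± 0.60 in WT (limma, adjusted p = 0.594 and 0.625).

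Just before the gene, the region 1.92 kb upstream was called in 7 libraries, not in WT untreated library 2, and the region 1.15 kb upstream in 7, not in KO LPS library 1. Where called they held 171 to 364 and 448 to 603 bases.

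Downstream of Fcgr4, 2 regions differed between genotypes in their calls with LPS. The region 15.1 kb from the start site (chr1:171033865-171034216) was called in both WT LPS libraries, with 323 and 219 bases, and in none of the other 6. The region 18.1 kb from it (chr1:171036626-171037356) was called in neither KO LPS library, and held 450 and 382 bases in WT with LPS, 550 and 217 in KO and 373 and 534 in WT untreated. The region at 15.1 kb is a gain with LPS in WT, and both regions are WT-only with LPS, meaning called in both WT and neither KO library. Summed over its 8 regions, Fcgr4 had 3.62 and 3.17 kb called in KO with LPS, against 4.47 and 4.78 kb in WT with LPS, 4.74 and 4.42 kb in KO and 4.76 and 4.46 kb in WT untreated. Both KO LPS sums were below all 6 others, which held for 13.6% of genes and, of the 5 genes, for Fcgr4 and Fcgr3. The sums of both genes include regions that are WT-only with LPS, which by that rule have no called bases in KO with LPS. The order of the sums is therefore no separate evidence of a genotype difference.

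**Figure D2:**
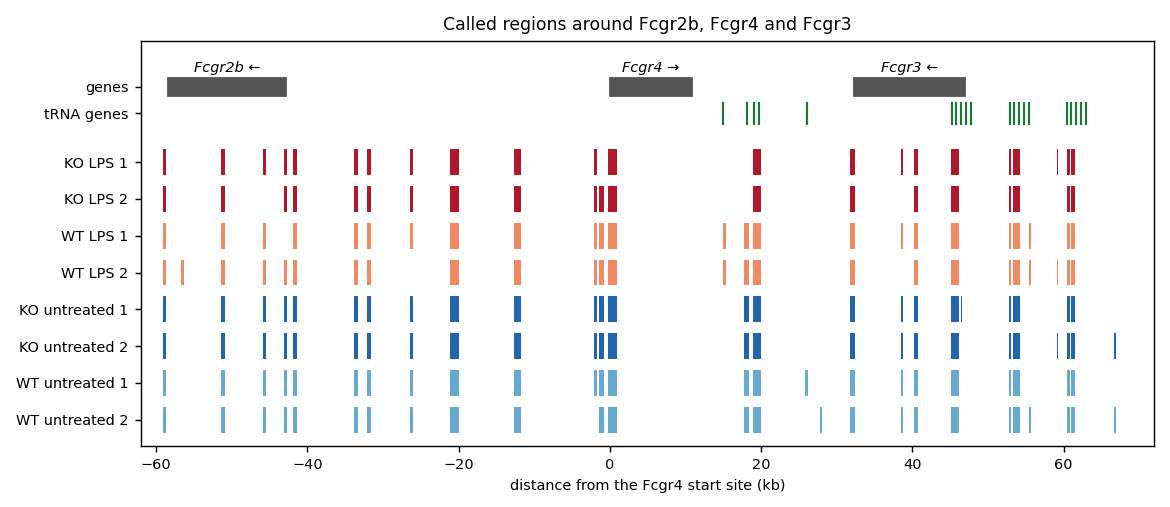
Regions called in each library (coloured blocks, drawn at the width of the merged region) around Fcgr2b, Fcgr4 and Fcgr3, against distance from the Fcgr4 start site in kb, with gene bodies, the direction of each gene (arrows) and tRNA genes (green ticks) above. Blocks at about 15 and 18 kb are missing from both KO LPS libraries, and the block at 15 kb is present in the WT LPS libraries only.

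Fcgr3, the activating receptor of lower affinity, had 14 regions, 7 of them called in all 8 libraries and 3 in 1 library. At its start site (chr1:171059104-171059674) it held 439 and 487 called bases in KO and 453 and 460 in WT with LPS, and 522 and 453 in KO and 516 and 489 in WT untreated. The LPS and untreated ranges overlapped in KO, while both WT LPS libraries lay below both untreated WT libraries. After centring, the log2 ratio of LPS over untreated was 0.06 ± 0.15 in KO and -0.02 ± 0.15 in WT (limma, adjusted p = 0.922 and 0.964). At the far end of the gene, 8.44 kb downstream (chr1:171050614-171051312), there were 364 and 318 in KO and 312 and 311 in WT with LPS, against 435 and 550 in KO and 534 and 302 in WT untreated. A region upstream of the gene (chr1:171074306-171074562) was called in both WT LPS libraries (226 and 200 bases) and WT untreated library 2 (195 bases), and in no KO library, which makes it WT-only with LPS. Other Fcgr3 regions were called in fewer libraries. The one 1.88 kb downstream was called in 6 libraries, with 182 to 309 bases, and those 18.7 and 26.4 kb upstream in 3 and 2 libraries, with at most 202 and 271 bases. Single libraries called the regions 14.5 kb downstream (WT untreated 1, 294 bases), 12.6 kb downstream (WT untreated 2, 269 bases) and 5.99 kb upstream (KO untreated 1, 184 bases). Summed over its regions, Fcgr3 had 3.37 and 3.01 kb called in KO with LPS, 3.62 and 3.55 kb in WT with LPS, 4.19 and 4.10 kb in KO and 3.75 and 4.18 kb in WT untreated. All LPS sums were below all untreated sums. Of the 5 genes, Fcgr1, Fcgr3 and Fcer1g had this order, and none had the reverse, which held for 1.76% of genes. The summed called bases of all 5 genes are not centred, and the LPS lists covered fewer Mb as a whole than the untreated ones.

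Many of the Fcgr3 and Fcgr4 regions lay on tRNA genes, which are short, very actively transcribed by RNA polymerase III and present in many near-identical copies. The gene table has 25 tRNA genes between Fcgr2b and Cfap126, the next protein-coding gene beyond Fcgr3, and 3 of them lie inside Fcgr3. Of the 39 regions, 11 (28.2%) overlapped a tRNA gene, 8 assigned to Fcgr3 and 3 to Fcgr4, against 0.173% of all regions. Upstream of the Fcgr3 start site, 15 of these genes form 3 copies of 1 order of 5 genes (Glu, Gly, Asp, Leu, Gly), with matching genes 7574 to 7671 bases apart. Of these 15, 7 lay under regions called in all 8 libraries and 6 under no region. Reads from such copies could be split or dropped by the mapping, so the calls at each copy are uncertain.

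The 2 widest tRNA regions hardly varied. The region 5.17 kb upstream of the Fcgr3 start site (chr1:171064044-171065097), over a Glu and a Gly tRNA gene and Mir6546, held 925 and 915 called bases in KO and 927 and 1019 in WT with LPS, and 987 and 950 in KO and 947 and 1003 in WT untreated. The region 19.5 kb downstream of the Fcgr4 start site (chr1:171037872-171038954), over a Gly and a Leu tRNA gene, held 880 and 986 in KO and 1011 and 949 in WT with LPS, and 948 and 859 in KO and 956 and 1083 in WT untreated. All 3 regions that were WT-only with LPS overlapped a tRNA gene: Asn and Asp at Fcgr4, and Gly at Fcgr3. Over the whole genome, 7 of the 145 tRNA regions called with LPS were WT-only (4.83%, against 3.82% of all regions). These 3 are among the 7, and 4 belonged to other genes. None was KO-only, against 2.45% of all regions. Of the other tRNA regions, those 12.5, 13.3, 20.1 and 20.7 kb upstream of Fcgr3 were called in all 8 libraries, with 243 to 298, 346 to 751, 224 to 394 and 362 to 469 bases. Summed over the 11 regions, called bases numbered 3030 and 3194 in KO with LPS, 4390 and 4152 in WT with LPS, 4424 and 3426 in KO and 3844 and 4300 in WT untreated. The 11 include the 3 WT-only regions, which by the rule that picked them have no called bases in KO with LPS. The grouping was also chosen after the values were seen, so these sums are no separate evidence of a genotype difference. Summed over the 28 other regions, called bases numbered 9737 and 8303 in KO and 9366 and 9862 in WT with LPS. Untreated, they numbered 11396 and 12280 in KO and 11759 and 10956 in WT.

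Fcgr2b, the inhibitory receptor, had 9 regions, 5 called in all 8 libraries. The region over its start site (chr1:170975830-170976251) held 250 and 346 called bases in KO with LPS, 0 and 190 in WT with LPS, 376 and 333 in KO and 373 and 361 in WT untreated. WT LPS library 1 did not call it and called the region 1.19 kb upstream (chr1:170977007-170977515), which the other 7 libraries also called. That region held 388 and 284 in KO and 422 and 451 in WT with LPS, and 381 and 376 in KO and 368 and 414 in WT untreated.

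Inside the gene, the region 8.36 kb downstream held 179 to 476 called bases over the 8 libraries, the one 2.84 kb downstream was called in 7, and the one 13.6 kb downstream in WT LPS library 2 alone (334 bases). Outside it, the region 9.23 kb upstream held 329 and 304 bases in KO and 276 and 292 in WT with LPS, and 538 and 353 in KO and 371 and 247 in WT untreated, and the one 16.6 kb upstream was called in 7 libraries.

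A region 11.0 kb upstream of Fcgr2b (chr1:170986850-170987300) was wider with LPS in both genotypes. It held 424 and 413 called bases in KO and 448 and 435 in WT with LPS, against 331 and 353 in KO and 343 and 343 in WT untreated, so the LPS and untreated libraries did not overlap. Its log2 ratio of LPS over untreated was 0.42 ± 0.14 in KO and 0.48 ± 0.14 in WT, or 1.34-fold and 1.40-fold, and did not pass the test (limma, adjusted p = 0.361 and 0.233). Such a separation, wider in all 4 LPS libraries, occurred in 2.6% of the 36009 regions called in all 8 libraries and in 1 of the 22 Fc receptor ones. The reverse, narrower in all 4, occurred in 10.8% and in none of the 22.

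Past the other end of Fcgr2b, 0.297 kb from the gene (chr1:170959774-170960261), a region was wider in KO than in WT within each treatment. It held 331 and 292 called bases in KO against 229 and 176 in WT with LPS, and 435 and 472 in KO against 296 and 272 in WT untreated. The log2 ratio of KO over WT was 0.68 ± 0.19 with LPS and 0.71 ± 0.19 untreated, or 1.60-fold and 1.64-fold, and did not pass the test over all regions (limma, adjusted p = 0.310 and 0.599). KO was wider than WT within each treatment in 3.43% of regions and in 1 of the 22, and narrower in 6.48% and in none of the 22. Summed over its regions, Fcgr2b had 2.44 and 2.07 kb in KO and 2.3 and 2.29 kb in WT with LPS, and 2.85 and 2.68 kb in KO and 2.66 and 2.31 kb in WT untreated.

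**Figure D3:**
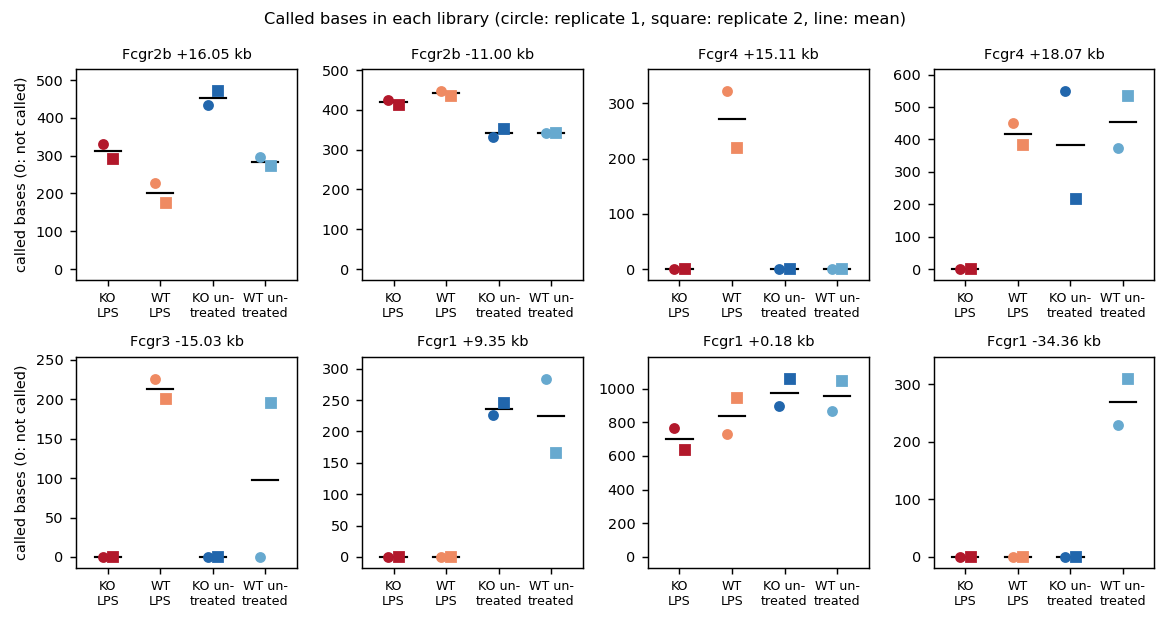
Called bases in each library for 8 regions, with 1 panel per region (gene and midpoint distance from its start site in kb) and the 4 groups on the x axis. Circles are replicate 1, squares replicate 2 and lines the group mean, and 0 means not called. The Fcgr1 region at 9.35 kb is called in untreated libraries only, the Fcgr2b region 11.0 kb upstream is higher in all LPS libraries, and the 2 Fcgr4 regions are at 0 in both KO LPS libraries.

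Fcer1g, the shared signalling chain, had 2 regions, both called in all 8 libraries. The region over the start site (chr1:171234090-171234846) held 583 and 757 called bases in KO and 573 and 591 in WT with LPS, and 676 and 704 in KO and 630 and 703 in WT untreated. The region inside the gene, 2.24 kb downstream (chr1:171231800-171232426), held 398 and 372 in KO and 427 and 506 in WT with LPS, and 529 and 530 in KO and 601 and 448 in WT untreated. The KO LPS libraries were the 2 lowest there, with a log2 ratio of LPS over untreated of -0.33 ± 0.19 in KO (limma, adjusted p = 0.566) and -0.04 ± 0.19 in WT (adjusted p = 0.943). The summed called length was 0.981 and 1.13 kb in KO and 1.00 and 1.10 kb in WT with LPS, below the 1.21 and 1.23 kb in KO and the 1.23 and 1.15 kb in WT untreated.

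By the call rule, no Fc receptor region was gained with LPS in KO and 1 was in WT, against 3.01% and 4.47% of all regions called in either treatment. In each genotype 2 were lost with LPS, of 33 called in KO and 38 in WT, against 4.78% and 5.71% of all. None was KO-only, against 1.85% of regions untreated and 2.45% with LPS. WT-only regions numbered 3 of 33 with LPS (9.09%, background 3.82%) and 1 of 37 untreated (background 2.58%). With 2 libraries a group these counts have no test.

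No Fc receptor region passed limma's test of called bases in any of the 5 contrasts. For LPS over untreated, 0 of 22 passed in KO (background 0.0%) and 0 of 22 in WT (background 0.0167%). An unadjusted p under 0.05 was reached by 2 in KO (background 11.1%) and 1 in WT (background 13.6%). For KO over WT, 0 of 22 passed with LPS (background 0.025%) and 0 of 22 untreated (background 0.0%). Here 1 had an unadjusted p under 0.05 with LPS (background 10%) and 1 untreated (background 6.07%). For the difference between the LPS effects of the genotypes, KO minus WT, 0 of 22 passed (background 0.0%). Of the 22, 0 had an unadjusted p under 0.05 (background 6.38%). The median of that log2 difference was -0.23 over the 22 regions and -0.00 over all 36009. With single libraries left out, the median over the Fc receptor regions lay between -0.22 (without KO LPS library 1) and -0.07 (without WT untreated library 2). The regions come from the same 8 libraries and are not replicates of each other. Medians for LPS over untreated were -0.06 in KO and 0.04 in WT, against 0.01 and 0.02 over all regions. Libraries were centred first, because without centring the median over all regions with LPS fell by 0.113 in KO and fell by 0.0984 in WT on the log2 scale.

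**Figure D4:**
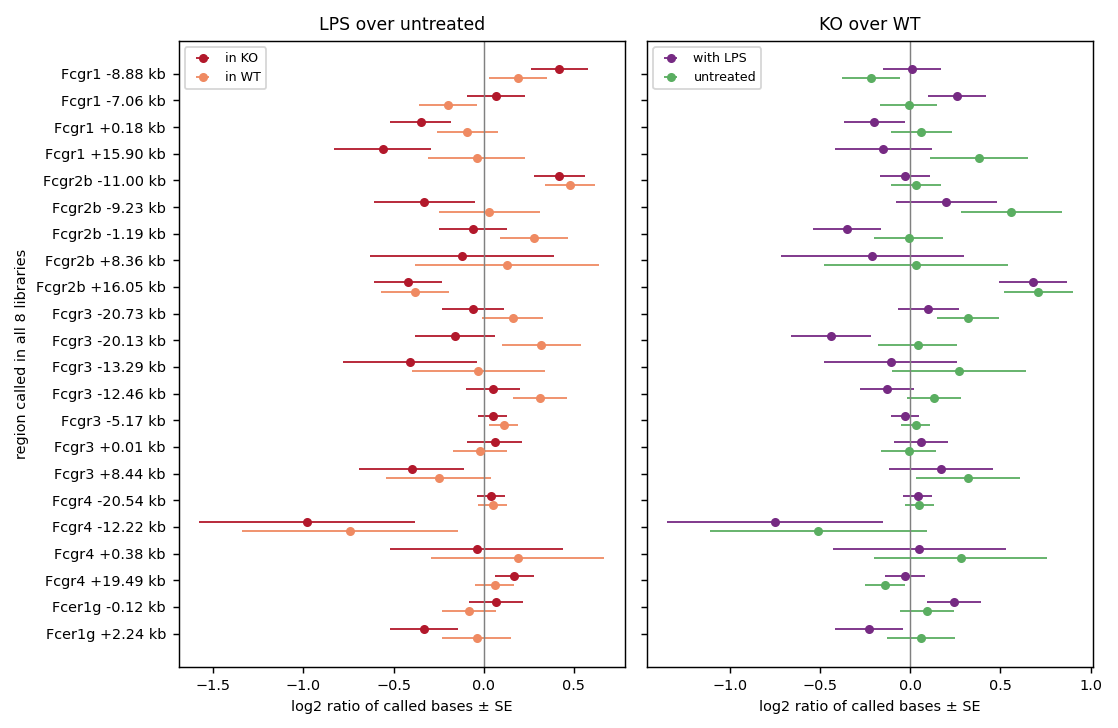
Log2 ratio of called bases (points) with its SE (bars) from limma for the 22 regions called in all 8 libraries. LPS over untreated is on the left, in KO and WT, and KO over WT on the right, with LPS and untreated. The Fcgr2b region 11.0 kb upstream lies above 0 with LPS in both genotypes and the one past the other end of the gene lies above 0 in KO in both treatments, and none passed the adjusted threshold.

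The wider Fc receptor pathway, 38 genes of other Fc receptors, ITAM kinases, adaptors and the inhibitory arm, had 331 regions at 36 genes. Of the 331 regions, 157 (47.4%, background 41.3%) were called in all 8 libraries. With LPS, 13 were gained (4.66%, background 3.01%) and 11 lost (3.94%, background 4.78%) in KO, and 14 were gained (4.47%, background 4.47%) and 13 lost (4.15%, background 5.71%) in WT. Regions gained in both genotypes numbered 5 of the 331, against 959 of all 87260: 3 at Lyn, a SRC-family kinase that phosphorylates ITAMs, 1 at Fcrlb, the Fc receptor-like gene beside Fcrla and Fcgr2b, and 1 at Fcrl5, an Fc receptor-like gene of B cells. The 1 lost in both, against 810 of all 87260, lay at Pik3cd, a catalytic subunit of phosphoinositide 3-kinase. KO-only regions numbered 6 with LPS (2.06%, background 2.45%) and 3 untreated (1.07%, background 1.85%). WT-only regions numbered 7 with LPS (2.41%, background 3.82%) and 9 untreated (3.21%, background 2.58%), with 1 region WT-only in both treatments at each of Vav3, an exchange factor for small GTPases, and Gab2, an adaptor. None of the 157 passed limma's test in the 4 contrasts of LPS or genotype, and their median log2 ratios lay between 0.01 and 0.03. Parts of the list differed more. For LPS over untreated in WT, the median was -0.27 over the 12 regions of other Fc and Fc-like receptors. It was 0.12 for the ITAM kinases, -0.0 for the adaptors and effectors and 0.04 for the inhibitory arm. After Lyn, with 17, regions called in all 8 libraries were most frequent at Vav3 (16), Pik3r5 (10), a regulatory subunit of phosphoinositide 3-kinase, and Fyn, Lcp2 and Gab2 (9 each). The inhibitory arm, with Inpp5d (SHIP1), Ptpn6 (SHP-1) and Dok1, had 30 of 44 regions (68.2%) called in all 8 libraries. The other Fc and Fc-like receptors had 12 of 36 (33.3%), and the background for both is 41.3%. Of the neighbouring genes, Fcrla, Gm39701 and Cfap126 had all their 2, 2 and 4 regions called in all 8 libraries, Fcrlb 2 of 5, and Apoa2 and H2bc18 1 of 2 each.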

How the data were processed

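Accessible chromatin was measured by ATAC-seq in 8 libraries of bone marrow-derived macrophages. Each library's deposited file lists peak start and end positions on GRCm38 (mm10) and holds no score, count or p-value. The tools named in the labels, per the submitters' processing notes, are MACS2 2.1.1, Bowtie2 2.3.0, bcl2fastq 2.17.1.14 and Picard. The sources used here do not state the calling threshold, how duplicate and multiply mapped reads were handled, or whether cut sites were shifted. These steps decide which weak peaks and which repeated sequences enter a list. Sequencing depth is unknown, so no counting interval was possible.

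Peaks on 21 chromosomes were merged where they overlapped by at least 1 base. Called bases were counted per region and library. Each region took the gene whose body was closest among 21883 protein-coding ones. A region is named by the distance of its midpoint from the start site of its gene, taken from the RefSeq promoter table of the same build. limma 3.58.1 (R 4.3.3) was fitted to log2 called bases of the regions called in all 8 libraries, centred on each library's median, with 4 group means, a trend in the prior and Benjamini-Hochberg adjustment over all 36009 regions, at a threshold of 0.05. In simulated data on those regions, the fit of LPS against untreated in KO recovered 32 of 100 changes of 1 log2 unit and 75 of 100 of 2 log2 units, with 8 wrong calls. The member genes, the lists and the tests were chosen with earlier results of these data known. The grouping by tRNA genes was chosen after the regions' values were seen. All 39 regions and 5 genes are described. Of the signalling list, genes were named that had a region gained or lost in both genotypes, or particular to a genotype in both treatments, and then those with the most regions called in all 8 libraries, up to 10. A marker gene and a neighbouring gene are not reported here.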

Additional observations from a re-analysis of the deposited data

Results flagged for a closer look

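Among the 39 regions, 2 had effects of opposite direction in every library. At the Fcgr4 region 1.15 kb upstream, both KO LPS libraries had fewer called bases than both WT LPS libraries (mean difference -247.5, with KO LPS library 1 at 0), while both untreated KO libraries had more than both untreated WT libraries (91.0). This difference was not tested, since 1 library did not call the region, and 2.8% of all 87260 regions had such a pattern. At the Fcgr3 region 12.5 kb upstream, over a Glu tRNA gene, LPS went with fewer called bases in KO (mean difference -13.0) and with more in WT (35.5), a pattern found in 2.08% of all regions. The same region was lower in KO than in WT with LPS (-32.0) and higher untreated (16.5). After centring of the libraries the direction in KO turned, with a log2 ratio of LPS over untreated of 0.05 ± 0.15 in KO and 0.31 ± 0.15 in WT. The difference between them, -0.26 ± 0.21, did not pass the test (limma, adjusted p = 0.916). No group had enough libraries for an outlier test.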

How the results depend on the processing

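Depth and peak scores are unknown, so peak width stood in for strength. Against 39 regions, 22 of them called in all 8 libraries, there were 21 and 7 in stricter lists (widest 27013 peaks). There were 21 and 13 with the nearest of all genes, where tRNA genes and other genes that are not protein-coding could also take a region. With 50% of a region covered, 14 were called in all 8. Gained in KO numbered 1 in stricter lists. Lost in KO numbered 4 with 50% covered, 1 with all genes and 1 without tRNA regions, an alternative chosen after seeing the data. Gained in WT numbered 3 at equal list lengths, 0 with all genes and 0 without tRNA regions. Lost in WT numbered 1 within 25 kb, 1 at equal lengths, 0 in stricter lists and 1 with all genes. KO-only untreated numbered 1 in stricter lists. WT-only untreated numbered 0 with 50% covered, within 25 kb, in stricter lists and with all genes. KO-only with LPS numbered 2 with 50% covered. WT-only with LPS numbered 1 in stricter lists, 0 with all genes and 0 without tRNA regions. Leaving out 1 library gave 38 to 40 regions, 22 to 23 called in all, 0 gained and 2 to 5 lost in KO, 1 to 3 gained and 2 to 4 lost in WT, 0 to 1 KO-only and 1 to 3 WT-only untreated, and 0 to 1 KO-only and 3 to 5 WT-only with LPS, where the remaining library of a group decides alone. The counts of 5 came without KO LPS library 1, those of 4 lost in WT without WT LPS library 1 or WT untreated library 1, 3 gained in WT without WT LPS library 1, and 3 WT-only untreated without WT untreated library 1. For these changes the cause was not tested unless the construction shows it. No region passed limma under any alternative, single libraries left out included (0 to 0), except 2 for LPS in WT with every region entered and a pseudocount of 100 (Fcgr4 at 15.1 kb and Fcgr1 at 34.4 kb, both absent from 1 arm). At the Fcgr2b region 11.0 kb upstream the log2 ratio stayed between 0.29 and 0.47 in KO and 0.36 and 0.53 in WT, and at the other end of the gene between 0.48 and 0.87 for KO over WT with LPS. Libraries with the same title code deviated together only weakly (correlation 0.0544 and 0.0537), and the labels do not say that a code marks an animal. With the code or number as a replicate block, 0 regions passed in each contrast.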
